A study of Mus musculus with 6 samples.

Results

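The replication-dependent histone genes are the clustered copies that supply most of the core histones (H2A, H2B, H3 and H4) and linker histone H1 to dividing cells. They were taken as every row of the deposited count table whose mouse symbol or an older alias begins with Hist1h, Hist2h, Hist3h or Hist4h, with pseudogenes left out. This gave 67 genes of the 27179 gene IDs in the table: 6 encode H1, 18 H2A, 18 H2B, 12 H3 and 13 H4. By the older names, 54 belong to the Hist1 cluster on chromosome 13, 10 to Hist2 on chromosome 3, 2 to Hist3 on chromosome 11, and 1, H4f16, to Hist4. The members were picked by name, not by any measured value, although earlier results of these data were known when the family was chosen.

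The libraries come from calvarial osteoblasts, the bone-forming cells of the skull, of C57Bl/6J mouse pups 5 days old. Per the labels, a collagenase digest was sorted by flow cytometry on a GFP transgene controlled by Osteocalcin-Cre, a recombinase active in osteoblasts, and the cells went into Trizol. One group of 3 libraries is labelled Cdc73/Hrpt2 Flox, with the genotype Cdc73/Hrpt2 KO (here, knockout), and the other group of 3 is labelled Wildtype. Both groups were sorted in the same way; the labels do not say whether the wildtype mice carried the floxed alleles, nor whether a library is 1 animal, a litter or a pool. The p-values therefore reflect only how much these samples vary, and part of that may be technical. Cdc73 encodes a subunit of the Paf1 complex, which travels with RNA polymerase II and has been linked to the processing of RNA 3′ ends, histone mRNAs included.

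Messages of these genes are unlike other messenger RNAs. They have no introns in their usual form and end in a short stem-loop instead of a poly(A) tail. The stem-loop is bound by the protein Slbp, and the end is cut with the help of the U7 small nuclear RNA. The messages accumulate in S phase, when DNA is copied, and are degraded when replication ends. Some of the same genes also make longer messages with a poly(A) tail, in particular in cells that have left the cell cycle. Whether the libraries were made from poly(A)-selected RNA is not given in the sources used here, and this decides which of these forms can be counted. The labels name total RNA as the extracted molecule.

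The stem-loop is shown first because it defines the family and was not used to choose the members. Each sequence below is the RNA-strand sequence, 5′ to 3′ with T for U, from GENCODE M21 transcripts of the mm10 mouse genome, with the 16 letters of the stem-loop (6 letters of stem, 4 of loop, 6 of stem) in capitals and 5 letters on each side in lower case. One gene is shown for each of the 6 distinct forms.
H1f2, chr13:23739507-23739532, plus strand: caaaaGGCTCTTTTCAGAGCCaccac
H4c4, chr13:23581945-23581970, plus strand: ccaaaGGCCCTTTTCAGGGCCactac
H2bc3, chr13:23747198-23747223, plus strand: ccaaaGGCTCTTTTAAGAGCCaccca
H4c9, chr13:22040961-22040986, minus strand: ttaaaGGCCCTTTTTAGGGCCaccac
H4c11, chr13:21735432-21735457, plus strand: ctaaaGGTCCTTTTCAGGACCaccac
H2ac20, chr3:96220413-96220438, minus strand: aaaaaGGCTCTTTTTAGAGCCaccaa
The H1f2 form was the most common, with 26 members from the H1, H2A, H2B and H3 classes, H3c14 among them. The form of H4c4 was held by 7 members, all H4 genes, and that of H2bc3 by 6. The forms of H4c9 and of H4c11 had 2 members each, again H4 genes, and that of H2ac20 had 1.

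All 67 members matched a GENCODE gene. The search was for 6 letters starting with GG, a 4-letter loop starting with TTT and the reverse complement of the 6. Of the 46 members with at least 60 annotated bases after the stop codon, 42 had the form there, and 44 had it in all. Of 21834 other protein-coding genes, 24 (0.11%) had it anywhere in a transcript. The stem-loop began 21 to 58 bases after the stop codon, with a median of 31. In 22 members the annotated transcript ran more than 100 bases past the stem-loop, and 13 of those had the poly(A) signal letters AATAAA there. H1f2, with 840 bases after the stem-loop, H3c14, H2aw and H2bc6 were among these 13. The annotated transcripts of the H2B genes H2bc4 and H2bc21 lacked the form, and that of H2bc18 had no bases after the stop codon. An absent match says only that these letters are not in the annotated transcript.

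Promoter letters also grouped the members by class. RefSeq windows of 300 bases (250 before the start and 50 after, GRCm38.p6) were found for 62 members, 63 windows in all. The letters CCAAT, on either strand, were in 85.7% of member windows and in 37.4% of all 32851 windows. Every H1, H2A, H2B and H3 window held them, and 3 of 12 H4 windows did. TATAAA, on the gene's strand, was in 47.6% against 8.32% of all windows. ATTTGCA on either strand, the first 7 letters of the octamer, was in 22.2% against 4.02%, in 7 of 18 H2A windows, 7 of 17 H2B windows and no window of another class. AAACACA on either strand, known as the H1 box, was in 14.3% against 7.18%, and in 5 of 6 H1 windows. The TATA box and the H1 box can share their end letters, as can the CCAAT box and the octamer, and each motif was counted on its own. The 150 bases before the start of 3 genes show these class patterns, with every searched motif in capitals.
H1f4, chr13:23622559-23622708, minus strand: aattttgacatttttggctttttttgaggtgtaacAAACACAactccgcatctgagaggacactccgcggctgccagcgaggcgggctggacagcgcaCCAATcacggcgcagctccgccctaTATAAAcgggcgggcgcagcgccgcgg
H2bc18, chr3:96269550-96269699, plus strand: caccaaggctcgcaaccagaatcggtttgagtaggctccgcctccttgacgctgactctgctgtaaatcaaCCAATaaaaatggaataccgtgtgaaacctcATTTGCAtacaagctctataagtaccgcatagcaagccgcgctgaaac
H4c4, chr13:23581418-23581567, plus strand: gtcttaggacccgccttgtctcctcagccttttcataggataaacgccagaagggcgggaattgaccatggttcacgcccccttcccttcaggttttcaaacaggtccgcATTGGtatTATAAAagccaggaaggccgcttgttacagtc
H1f4 carries the H1 box, CCAAT and TATAAA in that order, H2bc18 carries CCAAT and the octamer letters, and H4c4 carries CCAAT on the opposite strand (ATTGG) shortly before TATAAA. A match is a description of letters, not evidence of binding. A further shared feature is the arrangement of the genes, searched only among the 62 members with a window. Here 10 divergent pairs, all of 1 H2A and 1 H2B gene, had start sites 164 to 281 bases apart (median 204.5). They held 20 of the 67 members. H2bc4 and H2bc21 had no window, so pairs with them could not be found. In none of these pairs were both genes tested.

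Because the members are near-copies, the counts of single genes need care. All 13 H4 genes encode 1 protein, from 12 distinct coding sequences. The 12 H3 genes encode 2 proteins, the 18 H2A genes 9, the 18 H2B genes 11 and the 6 H1 genes 6. Each transcript was cut into words of 50 bases, and words that occur at no other annotated locus were counted. The median share of such words was 98.9% for H1, 27.0% for H2A, 56.0% for H2B, 42.8% for H3 and 60.5% for H4. H1f2 had 91.5% while every word of H2bc18 was of this kind. H2ac18 had 3.72% and H2ac19 0%, since these are copies of a duplicated stretch of the Hist2 cluster, which also holds H3c14 (65.3%) and H3c15 (36.5%). How reads that match several places were counted is not given in the sources used here, so counts within H2A, H2B, H3 and H4, and those of H2ac18, H2ac19, H3c14 and H3c15, may be split between copies or lost. Strand use in counting is not given either: several members overlap another annotated gene (H2bc6 with H1f4, and H2ac18 and H3c14 with the same predicted transcript), and their reads cannot be told apart.

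**Figure D1:**
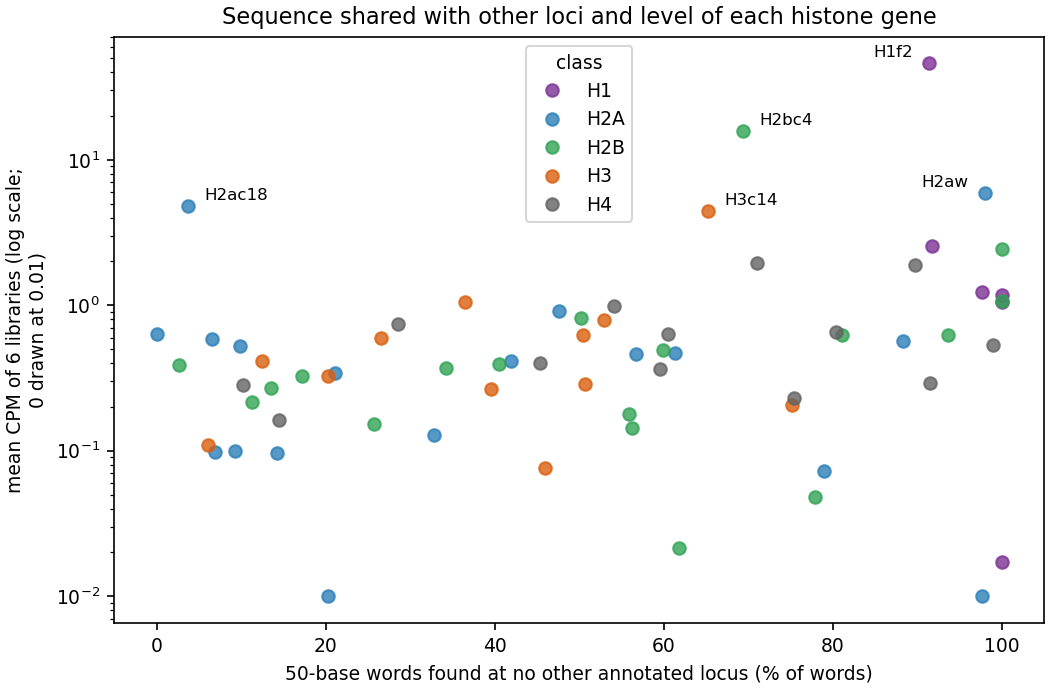
Share of each member's 50-base words that are found at no other annotated locus (x axis, percent) against its mean level over the 6 libraries (y axis, CPM, log scale, with 0 drawn at 0.01), 1 point per gene coloured by class. H1 genes lie at the right, at 91.5% or more, while H2ac18 is among the higher genes with a share of 3.72%.

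The 6 libraries held 13591925 to 20993962 counts, of which 1182 to 2351 fell on the 67 members. Levels are given in CPM, the count of a gene scaled to the size of its library, after scaling by the trimmed mean of M values (TMM), whose factors were 1.02, 0.971 and 0.813 for knockout 1, 2 and 3 and 1.09, 1.06 and 1.08 for wildtype 1, 2 and 3. Wildtype 2 and 3 stood apart: 338 and 160 gene IDs were at 0 there although at least 10 counts were expected from the other libraries, against 0 to 5 gene IDs in the other libraries. H1f1 and H2bc18 were such genes in wildtype 2, and H4c14 in wildtype 3. Cdc73 itself was at 13.98, 14.73 and 14.40 CPM in knockout 1, 2 and 3 and at 20.50, 12.80 and 21.73 CPM in wildtype 1, 2 and 3, so wildtype 2 lay below every knockout library (log2 fold change -0.36, SE 0.22, edgeR adjusted p = 0.428). Which part of Cdc73 was deleted is not given in the sources used here, and its whole-gene count does not check every label. Osteoblast markers were counted in all libraries: 10 of them, among them Col1a1 and Bglap, summed to between 237092.5 and 350948.3 CPM. Most of this sum was type I collagen, with Col1a1 and Col1a2 at 145986.75 and 87166.26 of 241700.9 CPM in knockout 1. Bglap was at 432.67 CPM (knockout 2) to 1398.19 CPM (wildtype 3). The sum does not by itself give the identity of the cells.

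Counts of histone messages were low in these libraries, and H1f2 and H2bc4 took a large share of them. The 67 members together summed to 141.1, 112.8 and 97.2 CPM in the knockout libraries and to 95.6, 89.2 and 128.9 CPM in the wildtype libraries. The groups overlapped, and the ratio of their means was 1.12. H1f2, a linker histone, took 26.6% to 53.3% of the histone counts of a library, and H2bc4, an H2B gene, 10.8% to 16.6%. The 95% Clopper-Pearson intervals, which cover counting error only, were 24.5% to 28.8% for the lowest H1f2 share (knockout 2) and 51.2% to 55.4% for the highest (wildtype 3). Per kilobase of annotated exon, H1f2 also had the highest level (29.5 CPM per kb over the 6 libraries), followed by H2bc4 (13.6), H2ac18 (8.17), H2bc18 (6.41), H2aw (2.75), H4c9 (2.70) and H3c14 (2.44). These levels use GENCODE exon lengths, since the annotation used for counting is not named.

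**Figure D2:**
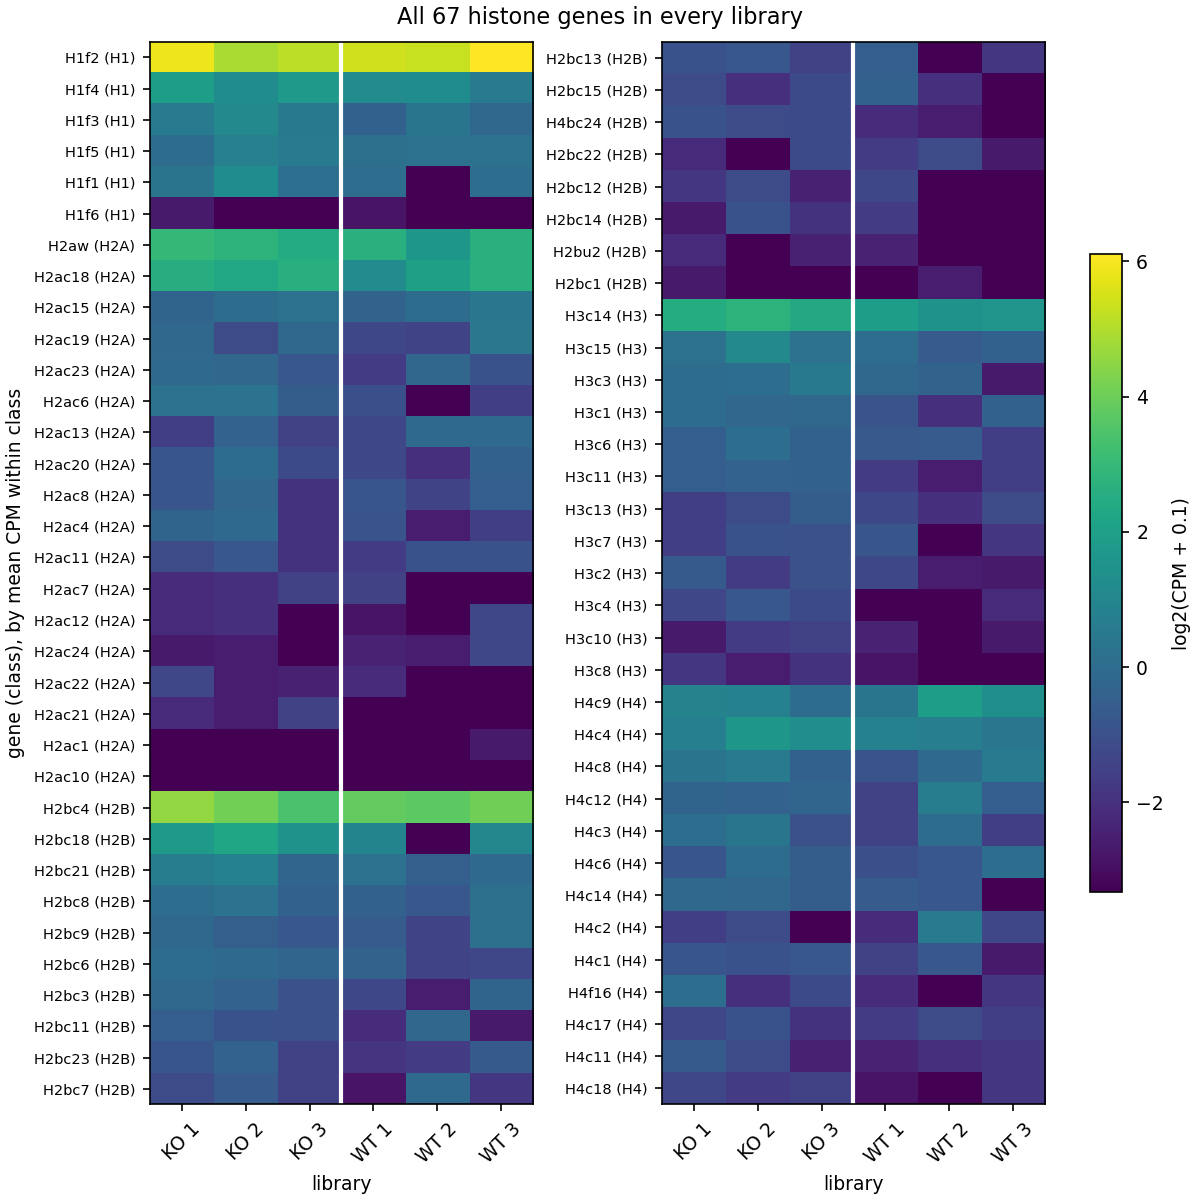
Level of each of the 67 members (rows, with class in parentheses) in each library (columns, KO knockout and WT wildtype), as log2(CPM + 0.1), ordered by mean level within class. H1f2 and H2bc4 are bright in all 6 libraries, and most other members are near or below 1 CPM, with more members at 0 in wildtype 2 and 3.

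A count of at least 1 was found for 65, 61 and 60 members in knockout 1, 2 and 3 and for 62, 47 and 54 in wildtype 1, 2 and 3. After every library was thinned to the smallest total, the numbers were 64, 60 and 60 against 60, 47 and 54. Wildtype 2 and 3 had the fewest detected members. They also had the fewest detected gene IDs of any kind after thinning, 14608 and 15639, against 16945 to 17788 in the other libraries. Only H2ac10 had no count in any library.

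With these depths, 26 of the 67 members passed the filter on low counts and were tested, and 41 were not. Of the 26, 11 had at least 10 counts in all 6 libraries, 5 had them in every knockout library but not in every wildtype library, and 1 had the reverse. So some members could enter the test through the group where they were higher, and counts over the 26 are descriptions of those genes alone. Of the 41 others, 40 had at most 60 counts over the 6 libraries.

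No member changed past the threshold. In edgeR's quasi-likelihood test of knockout against wildtype, adjusted over all 13505 genes tested, 0 of the 26 had an adjusted p under 0.05, and neither did any other gene (0% of genes called). DESeq2 and limma voom also called 0 members, DESeq2 giving an adjusted p for 19 members. The smallest adjusted p of a member was 0.28. At an unadjusted p under 0.05, 1 member was higher in knockout, H3c14, and 0 were lower, beside 8.26% of all genes higher and 6.35% lower.

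The estimates nevertheless lay mostly on one side. Of the 26 tested members, 21 had a positive log2 fold change (higher in knockout) and 5 a negative one, with a median of 0.63 and a range from -0.76 to 1.5. Over all genes tested, 49.3% were positive and the median was -0.01. The 5 members that reached 10 counts in every knockout library but not in every wildtype library were all positive. The sign count and the median of the members therefore follow in part from the filter. The 3 members averaging at least 5 CPM, H1f2, H2bc4 and H2aw, were at -0.29, 0.23 and 0.37. In 8 members the knockout libraries were all higher than the wildtype libraries, and in 0 members all lower, beside 10.6% of all genes above and 9.81% below. These 8 were H1f1, H1f3, H2bc6, H2bc18, H3c1, H3c3, H3c14 and H3c15. All 5 members that reached 10 counts in every knockout library but not in every wildtype library are among them (H1f1, H2bc18, H3c1, H3c3 and H3c15), so their separation partly restates the filter and is not read against the background. The other 3 were H1f3, H2bc6 and H3c14. With scaling by library size alone, which leaves out the factor of 0.813 of knockout 3, the count without overlap was 3. These were H2bc18, H3c3 and H3c14, while H1f3 and H2bc6 overlapped. H3c14 separated narrowly, with 61 of 14958335 counts in knockout 3 and 85 of 20993962 in wildtype 1. The member median was 0.45 on that scale and the median of all genes was -0.21. The share of all genes without overlap was not taken on that scale. The member median was 0.52 without wildtype 2, 0.60 without wildtype 3 and 0.42 without knockout 2. The medians of all genes were then -0.02, 0.0 and -0.01. When wildtype 1 alone served as control, the member median was 0.49, beside 0.01 for all genes.

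**Figure D3:**
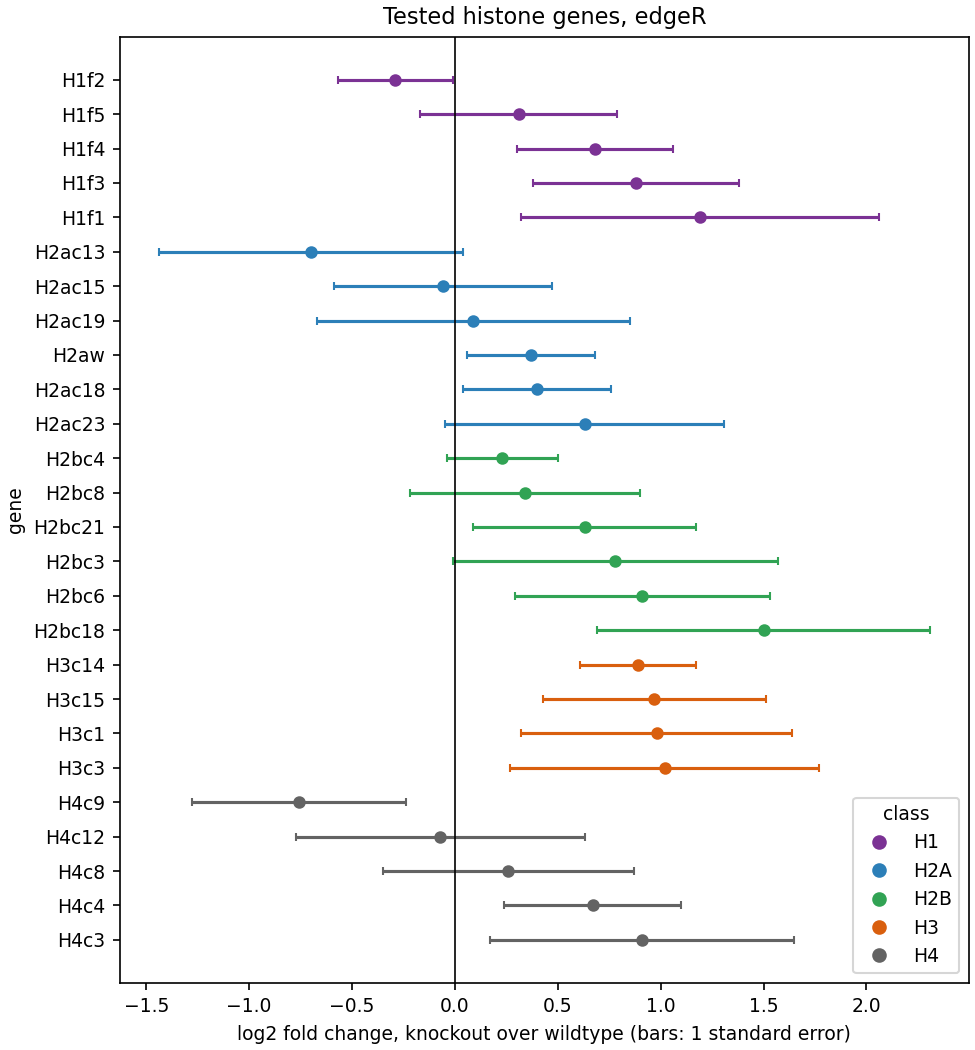
Log2 fold change of knockout over wildtype for the 26 tested members (points, edgeR), with bars of 1 standard error, coloured by class; the vertical line marks no difference. The 4 H3 genes and 6 H2B genes are all to the right, the H2A and H4 genes lie on both sides, and H1f2 is the only H1 gene to the left.

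H1 genes encode the linker histones, which sit on the DNA that enters and leaves the nucleosome. H1f2 (Hist1h1c, gene ID 50708) was at 57.66, 30.02 and 36.12 CPM in knockout and 43.28, 39.99 and 68.66 CPM in wildtype. These ranges overlapped widely, and wildtype 3 was highest (log2 fold change -0.29, SE 0.28, edgeR adjusted p = 0.598). Without knockout 1 the estimate was -0.63 (SE 0.27, edgeR adjusted p = 0.641), with an unadjusted p under 0.05. H1f4 (Hist1h1e, gene ID 50709) was at 3.78, 2.29 and 3.37 CPM against 2.23, 2.30 and 1.37 CPM. Knockout 2 lay just under wildtype 2, so the groups touched (0.68, SE 0.38, edgeR adjusted p = 0.402). H1f3 (Hist1h1d, gene ID 14957) was at 1.38, 2.08 and 1.32 CPM against 0.66, 1.18 and 0.78 CPM, with no overlap (0.88, SE 0.50, edgeR adjusted p = 0.405). H1f1 and H1f5 had log2 fold changes of 1.19 and 0.31, and H1f6, a testis-type linker histone, had 1 count in each of 2 libraries. All 6 H1 genes summed to 64.9, 38.3 and 43.2 CPM in knockout and 48.1, 44.5 and 72.8 CPM in wildtype. These sums overlapped, with a ratio of 0.88. Leaving out H1f2 was decided after its values were seen. The other 5 H1 genes summed to 7.3, 8.3 and 7.1 CPM in knockout and 4.9, 4.5 and 4.2 CPM in wildtype. Their ratio was 1.67 with no overlap, by library size alone as well (5.7 to 8.0 against 4.5 to 5.3).

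H2A and H2B form the dimers on the outer faces of the nucleosome. H2aw (Hist3h2a, gene ID 319162) was at 7.68, 6.81 and 5.51 CPM in knockout and 6.16, 3.06 and 6.21 CPM in wildtype. Only wildtype 2 stood below all knockout libraries (log2 fold change 0.37, SE 0.31, edgeR adjusted p = 0.548). H2ac18 (Hist2h2aa1, gene ID 15267) was at 5.70, 4.80 and 5.84 CPM against 2.23, 3.96 and 6.21 CPM, with wildtype 3 the highest of the 6 (0.40, SE 0.36, edgeR adjusted p = 0.577). Of the 6 H2A genes tested, 4 were positive with a median of 0.23, and the lowest was H2ac13 at -0.70. The 18 H2A genes summed to 19.8, 18.9 and 16 CPM against 12.3, 10.8 and 18.9 CPM, where wildtype 3 fell within the knockout range.

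H2bc4 (Hist1h2bc, gene ID 68024) was at 23.46, 16.96 and 10.53 CPM in knockout and 14.08, 13.01 and 16.60 CPM in wildtype. All wildtype values lay between the lowest and highest knockout values (log2 fold change 0.23, SE 0.27, edgeR adjusted p = 0.675), and without knockout 1 the estimate was -0.09. H2bc18 (Hist2h2bb, gene ID 319189) was at 3.36, 4.73 and 2.80 CPM against 1.79, 0 and 1.97 CPM. It had the highest fold change of the tested members, with 0 counts in wildtype 2, where 3 counts would be 0.208 CPM (1.5, SE 0.81, edgeR adjusted p = 0.391). H2bc6 (Hist1h2be, gene ID 319179) was at 0.90, 0.83 and 0.74 CPM against 0.70, 0.28 and 0.30 CPM, a narrow separation (0.91, SE 0.62, edgeR adjusted p = 0.470). All 6 tested H2B genes were positive with a median of 0.70, H2bc21, H2bc3 and H2bc8 being at 0.63, 0.78 and 0.34. All 18 H2B genes summed to 34.9, 30.0 and 18.8 CPM against 21.7, 17.2 and 23.5 CPM, with overlap and a ratio of 1.34. H2bc4 was set apart after its values were seen. Without it, the H2B genes summed to 11.5, 13.1 and 8.3 CPM against 7.7, 4.2 and 6.9 CPM, a ratio of 1.76. The narrow separation of these last sums was lost by library size alone, where they were 11.7, 12.7 and 6.8 against 8.3, 4.4 and 7.4.

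H3 and H4 form the tetramer at the core of the nucleosome. H3c14 (Hist2h3c1, gene ID 15077) was at 5.58, 6.81 and 5.02 CPM in knockout and 3.72, 2.71 and 2.93 CPM in wildtype. Every knockout library was higher, and its estimate was 0.89 with SE 0.28 (edgeR unadjusted p = 0.00959, adjusted p = 0.28). H3c15 (Hist2h3c2, gene ID 97114), a copy of H3c14 in the duplicated stretch, was at 1.08, 2.08 and 1.07 CPM against 0.92, 0.56 and 0.66 CPM (0.97, SE 0.54, edgeR adjusted p = 0.400). H3c1 and H3c3 were at 0.98 and 1.02, and neither overlapped between groups. Of the 4 tested H3 genes, H3c1, H3c3 and H3c15 reached 10 counts in every knockout library but in only some wildtype libraries. That all 4 are positive therefore follows in part from the filter. The 12 H3 genes summed to 11.2, 14 and 11.7 CPM against 7.8, 4.9 and 5.6 CPM, a ratio of 2.02. By library size alone the H3 sums were still separate, 9.5 to 13.6 against 5.2 to 8.5.

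H4c9 (Hist1h4i, gene ID 319158) was at 1.74, 1.67 and 0.90 CPM in knockout and 1.18, 3.76 and 2.51 CPM in wildtype. It had the lowest fold change of the tested members (log2 fold change -0.76, SE 0.52, edgeR adjusted p = 0.464), and against wildtype 1 alone the estimate was 0.29. H4c4 (Hist1h4d, gene ID 319156) was at 1.56, 3.06 and 2.39 CPM against 1.66, 1.53 and 1.19 CPM, with knockout 1 inside the wildtype range (0.67, SE 0.43, edgeR adjusted p = 0.443). Of 5 tested H4 genes 3 were positive, and the median was 0.26. The 13 H4 genes summed to 10.2, 11.5 and 7.6 CPM against 5.6, 11.8 and 8.1 CPM, with wildtype 2 highest.

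**Figure D4:**
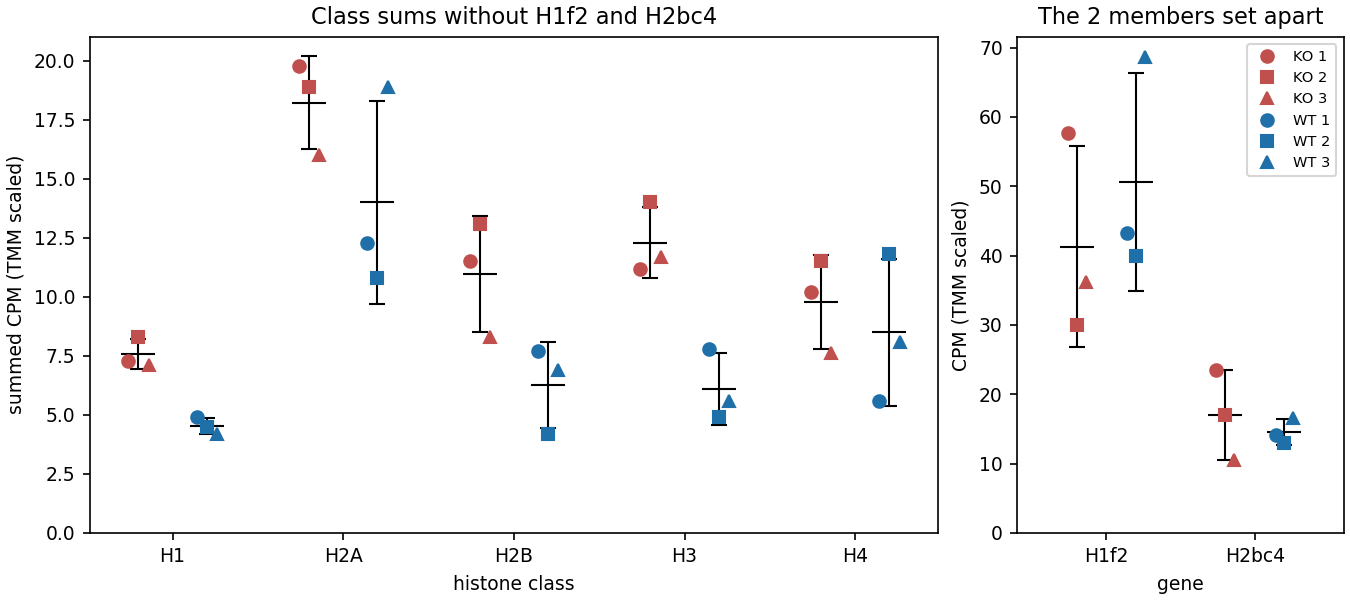
Left, summed CPM of each histone class per library, without H1f2 and H2bc4; right, the CPM of H1f2 and of H2bc4. Points are libraries (KO knockout, WT wildtype), horizontal bars the mean of 3 libraries and vertical bars 1 SD. On this TMM scale the H1, H2B and H3 sums do not overlap between groups (the H2B sums do by library size alone). The H2A and H4 sums and both single genes overlap. With H1f2 and H2bc4 included, the H1 and H2B sums overlap as well.

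Set apart from H1f2 and H2bc4, a split made after their values were seen, the other 65 members summed to 59.9, 65.8 and 50.6 CPM in knockout and 38.3, 36.2 and 43.6 CPM in wildtype. The ratio was 1.49, and the groups did not overlap. By library size alone the sums were 61.0, 63.8 and 41.1 against 41.7, 38.3 and 46.9, and knockout 3 fell among the wildtype libraries. The 41 members not tested summed to 14.7, 15.6 and 10.9 CPM against 9.4, 7.9 and 8.2 CPM. By library size alone these sums overlapped: knockout 3 held 132 of 14958335 counts, and wildtype 1 held 214 of 20993962. Among the 41 members, 9 were higher in every knockout library on the TMM scale, each on counts of at most 20 in a library. The only lower one was H2ac24. The share of other untested gene IDs that separated in this way was not taken, so these counts are not read as a result about histone genes. Wildtype 2 and 3 had the fewest detected gene IDs of any kind. By cluster, and again without H1f2 and H2bc4, the Hist1 genes summed to 31.6, 36.3 and 26.7 CPM against 20.7, 24.3 and 22.3 CPM. The Hist2 genes summed to 19.6, 22.5 and 18 CPM against 11.2, 8.9 and 14.9 CPM, while the Hist3 sums overlapped (7.8, 6.8 and 5.6 against 6.3, 3.1 and 6.2). By library size alone the Hist1 and Hist2 sums overlapped too. For Hist1, knockout 3 held 324 of 14958335 counts, and wildtype 2 held 349 of 13591925. For Hist2, knockout 3 held 219 counts, and wildtype 3 held 249 of 15570605. In such bulk libraries, fewer cells that make a message and less of it per cell cannot be told apart.

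Genes that process and degrade histone messages were centred near 0 as a list. Of 19 such genes tested, 8 were positive with a median of -0.04, and 0 passed the adjusted threshold in edgeR (at an unadjusted p under 0.05, 0 were higher and 1 lower). Slbp, the stem-loop binding protein, was at 28.26, 32.80 and 21.80 CPM in knockout and 25.40, 19.40 and 17.08 CPM in wildtype, with overlap (log2 fold change 0.42, SE 0.21, edgeR adjusted p = 0.374). Nelfe, a subunit of the pausing factor NELF, was at 14.04, 14.66 and 18.51 CPM against 16.26, 31.16 and 26.75 CPM (-0.65, SE 0.25, edgeR adjusted p = 0.31), and without wildtype 1 its adjusted p was 0.0477. Tut7, which adds uridines to histone messages for decay, and Lsm1, of the decay complex that follows, had log2 fold changes of 0.47 and -0.46. Summed, the 19 genes were at 428.0 to 450.8 CPM in knockout and 440.6 to 452.9 CPM in wildtype.

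Histone variants made outside S phase, most of whose messages have poly(A) tails, mostly lay on the other side. Of 11 tested, 2 were positive with a median of -0.25, and 0 passed the adjusted threshold in edgeR (at an unadjusted p under 0.05, 0 were higher and 2 lower). Cenpa, the centromeric H3, was at 18.18, 15.15 and 16.37 CPM in knockout and 19.89, 24.06 and 30.33 CPM in wildtype, with no overlap (log2 fold change -0.58, SE 0.19, edgeR adjusted p = 0.291). The linker histones H1f10 and H1f0 had log2 fold changes of -0.45 and -0.33, and H2az2, an H2A.Z gene, -0.30. H3f3b, an H3.3 gene, was at 1.20, 0.76 and 0.90 CPM against 0.70, 0 and 0 CPM. Of 16 chaperone and assembly genes, 7 were positive with a median of -0.01, and 0 passed in edgeR (0 higher and 2 lower unadjusted). Chaf1b and Asf1b, which deposit new H3 and H4 behind the replication fork, had log2 fold changes of -0.64 and -0.67.

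S-phase genes, the usual companions of histone messages, lay lower in most cases. Of 30 tested, 7 were positive with a median of -0.30. In edgeR 0 passed the adjusted threshold, and at an unadjusted p under 0.05 there were 7 lower and 0 higher. Pcna, the replication clamp, was at 41.52, 40.03 and 36.20 CPM in knockout and 34.19, 33.24 and 36.66 CPM in wildtype (0.18, SE 0.14, edgeR adjusted p = 0.537), and by library size alone its estimate was -0.02. Tk1, which makes thymidine monophosphate, was at 8.34, 7.09 and 6.75 CPM against 9.92, 17.80 and 13.67 CPM (-0.89, SE 0.24, edgeR adjusted p = 0.273). Ccna2, Tyms and Rfc4 had log2 fold changes of -0.54, -0.91 and -0.80. Without wildtype 1, Tk1 and Tyms passed in edgeR (adjusted p = 0.0409 and 0.0367). The 30 genes summed to 438.4 to 534.6 CPM in knockout and 536.4 to 657.4 CPM in wildtype.

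Mitosis genes were lower still: 1 of 16 was positive and the median was -0.60. In edgeR 0 passed the adjusted threshold, while at an unadjusted p under 0.05 there were 13 lower and 0 higher, beside the background of 6.35% lower. Cdc20, which switches on the anaphase-promoting complex, was at 14.70, 13.06 and 12.42 CPM in knockout and 19.76, 28.93 and 26.09 CPM in wildtype (-0.89, SE 0.19, edgeR adjusted p = 0.273). Plk1, Kif2c and Cdk1 had log2 fold changes of -0.88, -1.16 and -0.74. These 4 genes passed the adjusted threshold in DESeq2, with adjusted p from 0.017 for Cdc20 to 0.0446 for Cdk1, and in edgeR without wildtype 1 (0.0337 for Cdc20 to 0.0462 for Plk1), but not in limma voom (0.258 for each). The proliferation marker Mki67 was at 73.32, 65.05 and 66.39 CPM against 82.97, 63.78 and 49.86 CPM (0.06, SE 0.20, edgeR adjusted p = 0.899), and by library size alone its estimate was -0.14. The tested histone genes thus had a median of opposite sign to the S-phase and mitosis lists in the same libraries. That median counts each gene alike and follows in part from the filter. The summed level of all histone genes overlapped between groups, with a ratio of 1.12, and H1f2, the largest part of it, was at -0.29. Whether the histone, S-phase and mitosis lists differ from each other was not tested.

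Other RNAs without a poly(A) tail were higher in the knockout libraries by estimate. Of 19 such structural RNAs, 8 were tested, all 8 were positive, and the median was 1.24. In edgeR 0 passed the adjusted threshold, and at an unadjusted p under 0.05 there were 5 higher and 0 lower, beside 8.26% of all genes higher. Rn7sk, the 7SK RNA that restrains the elongation factor P-TEFb, was at 92.81, 128.91 and 110.07 CPM in knockout and 49.31, 53.34 and 34.93 CPM in wildtype (log2 fold change 1.27, SE 0.20, edgeR adjusted p = 0.273). Rmrp, the RNA of RNase MRP, was at 83.28, 115.78 and 66.97 CPM against 35.58, 53.34 and 22.69 CPM (1.26, SE 0.31, edgeR adjusted p = 0.273). Rpph1, the RNA of RNase P, had a log2 fold change of 1.23, and the small nucleolar RNAs Snora73a and Snord17 had 1.84 and 2.19. All 5 named RNAs passed the adjusted threshold in DESeq2, with adjusted p from 3.63e-07 for Rpph1 to 0.00535 for Snord17. In edgeR, Rpph1, Snora73a and Rn7sk passed with no filter (0.0295 for each) and without wildtype 1 (0.0301, 0.0301 and 0.0384), and in limma voom none of the 5 passed (0.183 to 0.258). The 17 such RNAs with a gene ID summed to 276.3, 377.0 and 297.3 CPM against 138.6, 152.7 and 100.8 CPM. The part of these RNAs, or of the share of RNA without a tail in each library, in the histone values was not tested.

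**Figure D5:**
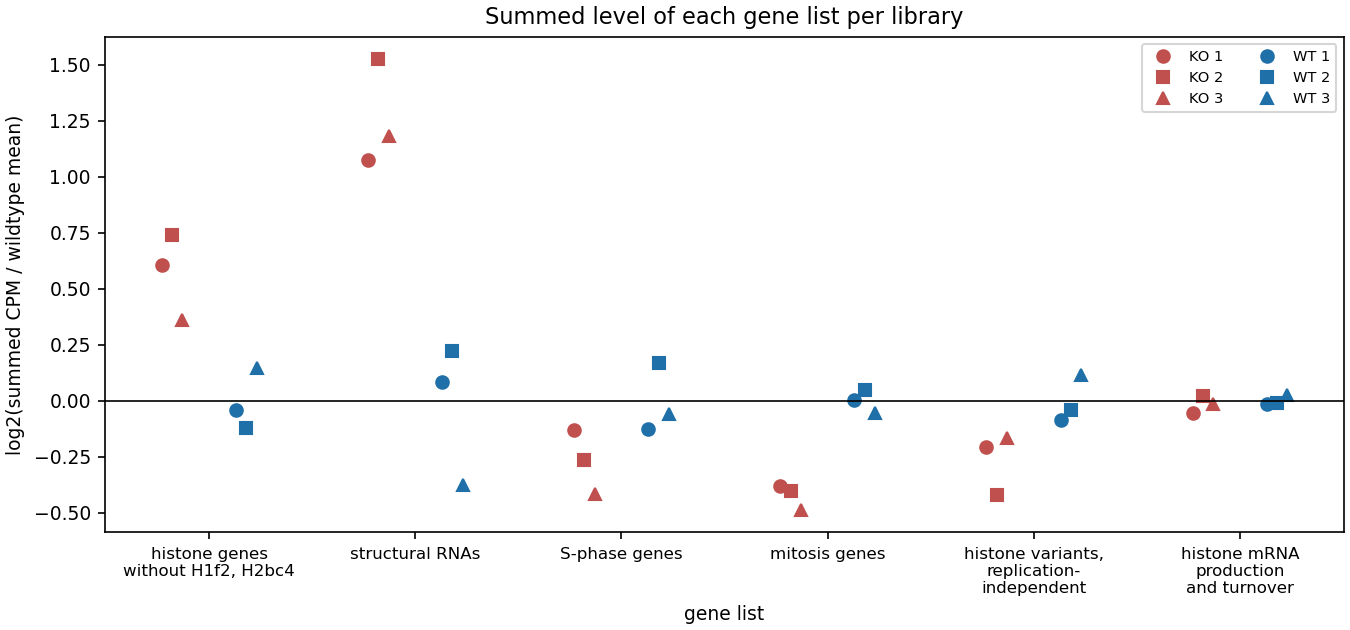
Summed CPM of 6 gene lists in each library, as the log2 ratio to the mean of the 3 wildtype libraries (KO knockout, WT wildtype). On this TMM scale, histone genes without H1f2 and H2bc4 and structural RNAs lie above the wildtype libraries in all 3 knockout libraries. By library size alone, knockout 3 falls among the wildtype libraries for the histone genes. Mitosis genes and histone variants lie below the wildtype libraries, and S-phase genes do so narrowly. The genes for histone mRNA production stay near 0.

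Summed markers of other cell types were also higher in the knockout libraries on the TMM scale, erythroid markers with overlap. By library size alone, knockout 3 fell within the wildtype range for the chondrocyte, macrophage, endothelial and neutrophil sums. For chondrocyte markers it held 141261 of 14958335 counts, and wildtype 1 held 225973 of 20993962. Of 12 chondrocyte markers 12 were positive (median 2.13), and they summed to 11621.2 to 25964.2 CPM in knockout and 3521.2 to 9878.4 CPM in wildtype. Macrophage markers (12 of 12 positive, median 1.19) summed to 145.5 to 342.0 CPM against 88.6 to 121.9 CPM, and endothelial markers (10 of 10, median 1.31) to 191.7 to 284.1 against 87.1 to 184.8 CPM. Neutrophil markers (9 of 9, median 1.56) summed to 58.3 to 188.6 CPM against 21.3 to 56.9 CPM. Erythroid markers (7 of 7, median 1.58) overlapped between groups, at 50.7 to 403.2 against 17.5 to 114.9 CPM, with Alas2 and Epor at 0 in wildtype 2. Elane, a neutrophil marker, was also at 0 there, and no chondrocyte, macrophage or endothelial marker was at 0 in any library. The osteoblast markers had 2 of 10 positive and a median of -0.27. The part of these cells in the histone values was not tested.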

How the data were processed

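Per the submitters' processing notes, CASAVA 1.7, Subread and featureCounts were used with the genome build mm10. Not given in the sources used here are the annotation, the strand setting and the treatment of reads with several matches. Raw counts were deposited per gene in 1 table of 27179 gene IDs, with 0 columns left unassigned. RefSeq named 25275 IDs and GENCODE M21 a further 18; 1886 had no name and stayed in totals and tests. Counts were tested with edgeR 4.0.16 in R 4.3.3 (TMM, filterByExpr with a minimum count of 10, quasi-likelihood test, two-sided, Benjamini-Hochberg adjustment over 13505 genes, threshold 0.05, common biological coefficient of variation 24.2%) on all 6 libraries without covariates. The code was tested on simulated data. DESeq2 1.42.0, limma 3.58.1 voom, other scalings and filters, a replicate block and each library left out were tried. Members and gene lists were chosen with earlier results of these data known. Members averaging at least 5 CPM and the 2 of smallest p in each class are given in full. Up to 4 genes of smallest p per list are named, as are Cdc73, Slbp, Mki67, Pcna, H3f3b, Rn7sk and Rmrp. Of 172 list entries, 3 had no ID. The 2 histone pseudogenes were left out.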

Additional observations from a re-analysis of the deposited data

How the results depend on the processing

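No histone gene passed the adjusted threshold under any of the 15 alternatives; the smallest adjusted p of a member ranged from 0.0768 (without wildtype 1) to 0.947 (wildtype 1 alone as control, an alternative chosen after seeing the data, whose spread comes from the knockout libraries and assumes that the lone wildtype library varies like them). Over all genes the call count of 0 rose to 24 with no filter, 288 with DESeq2 and 236 with a replicate block. It ranged from 0 to 409 when 1 library was left out (409 without wildtype 1). Most calls were higher in knockout: 24 against 0 lower with no filter, 257 against 31 with DESeq2 and 226 against 10 with the block. Without wildtype 1 there were 294 higher and 115 lower. The median of all genes was 0.07 with no filter and 0.09 with DESeq2, beside 0.62 and 0.65 for the members. The replicate block changed no call of a histone gene, and same-numbered libraries correlated at 0.115, -0.074 and 0.222 in their deviations, so the numbers were not read as pairs. Histone genes at an unadjusted p under 0.05 numbered 0 by library size alone, 5 with no filter, 2 with DESeq2, 2 with limma voom, 2 against wildtype 1 alone, and 0 to 5 with 1 library left out. Those without overlap numbered 3 by library size alone, 17 with no filter, 5 with the stricter filter and 18 with DESeq2. They numbered 28 against wildtype 1 alone and 10 to 14 with 1 library left out. The tested set differs between these. Against wildtype 1 alone, a gene is counted whenever that library lies outside the knockout range, a weaker condition than with all wildtype libraries. The shares of all genes were not taken under these alternatives, so these counts and the unadjusted ones are not read against a background. The median of the members ranged from 0.42 to 0.71 with 1 library left out. The log2 ratio of the summed histone level was 0.16, and -0.02 by library size alone; without H1f2 and H2bc4 it was 0.58, and 0.39 by library size alone. Sign changes among single genes were Mki67 at -0.14 and Pcna at -0.02 by library size alone, H2bc4 at -0.09 without knockout 1 (to 0.46 with another library left out), Mki67 at -0.12 without wildtype 3 (to 0.25), and, against wildtype 1 alone, H4c9 at 0.29, Tut7 at -0.09, Lsm1 at 0.22 and Mki67 at -0.29. The cause of these changes was not tested. Of 613 alternative values for 41 single genes, 578 kept direction and side of the threshold, 27 passed it in the same direction, and 8 changed sign. Depth limits the 41 untested members, none of which had over 20 counts in a library.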

Other observations

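The H3.3 genes H3f3a and H3f3b encode the same replication-independent histone but differed in recorded level. H3f3b had 20, 11 and 11 counts in the knockout libraries and 16, 0 and 0 in the wildtype libraries. H3f3a had 550, 402 and 387 counts against 633, 480 and 685. Of its 50-base words, 93.1% were found at no other annotated locus, against 86.6% for H3f3a. The count of H3f3b in these libraries was not checked against another counting of the reads.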
